A study of Mus musculus with 12 samples.

Results

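The DEAD and DEAH box genes, whose mouse symbols begin with Ddx or Dhx, were followed in M1-type macrophages that had or lacked the m6A reader YTHDF2. Members were all row names of the expression table made of Ddx or Dhx, a number and at most 1 letter. The pattern matched 51 genes. The rule left out 3 of these (Ddx58, Dhx58 and Ddx6), which leaves 48 members, 33 Ddx and 15 Dhx genes, of 27013 genes listed. All 48 were tested, in that the authors' deposited table gives them an adjusted p, as were 10778 genes in all, so no member was lost to the filter on low counts.

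DEAD and DEAH box proteins use ATP to unwind RNA helices or to strip proteins from RNA, and the 2 classes are named for a short stretch of amino acids in the motif that handles ATP. They serve each stage of the life of an RNA: DEAH members remodel the spliceosome, a large nucleolar group assembles ribosomes, and others act in export, translation, decay and the response to viral RNA. N6-methyladenosine (m6A) is a methyl mark on adenosines within mRNA, and YTHDF2 is a cytoplasmic protein that binds marked mRNA and promotes its decay. Each gene can therefore be described by its RNA level in both genotypes, by its m6A peaks and by its YTHDF2 peaks.

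Macrophages were grown from bone marrow of C57BL/6 mice that were either Ythdf2 cKO (a conditional knockout of Ythdf2) or wild type (WT). The sources used here do not name the Cre driver. Cells of both genotypes received 20 ng/ml of the growth factor M-CSF for 7 days, then 100 ng/ml LPS with 20 ng/ml IFN-γ for 24 hours. The series has 12 libraries in 6 groups of 2, namely m6A immunoprecipitation and its input from cKO and from WT cells, and YTHDF2 immunoprecipitation and its input from WT cells. Whether the 2 libraries of a group stem from different animals or cultures is not labelled. Their p-values measure the spread between these libraries, which may be technical.

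The 3 deposited files hold no value per library, so library depth is unknown and levels cannot be shown sample by sample. The genotype comparison covers the 4 m6A input libraries. Its direction is not stated. Ythdf2 itself stood at 1.10 ± 0.16 (adjusted p = 2.06e-09; each such value is a log2 fold change ± its standard error in the authors' deposited table). The lysozyme gene Lyz2 stood at −1.49 ± 0.33 there (adjusted p = 0.00133). A value above 0 means lower in cKO than in WT cells if that is how Ythdf2 RNA differed, and higher in cKO than in WT cells if Ythdf2 RNA was higher in cKO cells. Values above 0 are therefore called the side of Ythdf2, and values below 0 the opposite side. Both peak lists are single lists for WT cells, with replicates combined before deposit, and m6A peaks of cKO cells were not analysed here. All 17843 peaks of the YTHDF2 list carry names that begin with m6a, and whether they were called on the YTHDF2 or the m6A libraries was not tested. All 8 macrophage markers and all 6 markers of the M1 stimulus were among the tested genes. Of the macrophage markers 3 were called in the authors' deposited table, Lyz2 and Itgam (−0.55 ± 0.11, adjusted p = 0.000141) below 0 and Cd68 (0.40 ± 0.11, adjusted p = 0.0221) above. No marker of T and NK, B, dendritic, mast or erythroid cells was among the tested genes. Of the neutrophil markers 2 of 6 were tested and 0 called. Of the fibroblast markers 3 of 4 were tested and 1, Col1a1, was called. The fibroblast list had mean normalized counts of 7.79 to 580. In bulk RNA, fewer cells of a type and less RNA per cell cannot be told apart.

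None of the 48 members was called in the authors' deposited table, by a Wald test with the column names of DESeq2 at an adjusted p under 0.05. Of all tested genes 2.32% were, 1.76% above 0 and 0.557% below. At an adjusted p under 0.10 (3.1% of all tested genes) and at an unadjusted p under 0.05 (9.99%), 1 of the 48 passed, Ddx60. By the authors' deposited table, 18 members lay above 0 and 30 below, and their median log2 fold change was −0.04, beside −0.01 over all tested genes. Centring on the most abundant 25% of genes moved every value by 0.04, which put the members' median at −0.08. The share above 0 was 37.5% for the members and 48.7% for all tested genes.

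The precision of the comparison sets how much change it could have missed. The standard error of the members' log2 fold changes in the authors' deposited table ranged from 0.107 to 0.474, with a median of 0.153. The 95% interval computed from it lay within 1.5-fold in either direction for 40 members (83.3%), against 63.8% of all tested genes. It lay within 2-fold for 46 members (95.8%), against 89.8% of all tested genes. The members' counts were also higher: 30 of 48 lay above the median count of all tested genes, and their median mean normalized count in the authors' deposited table was 1012, beside 739 over all tested genes. The 2 members with intervals beyond 2-fold were those with the lowest counts, Ddx4 and Ddx11.

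**Figure D1:**
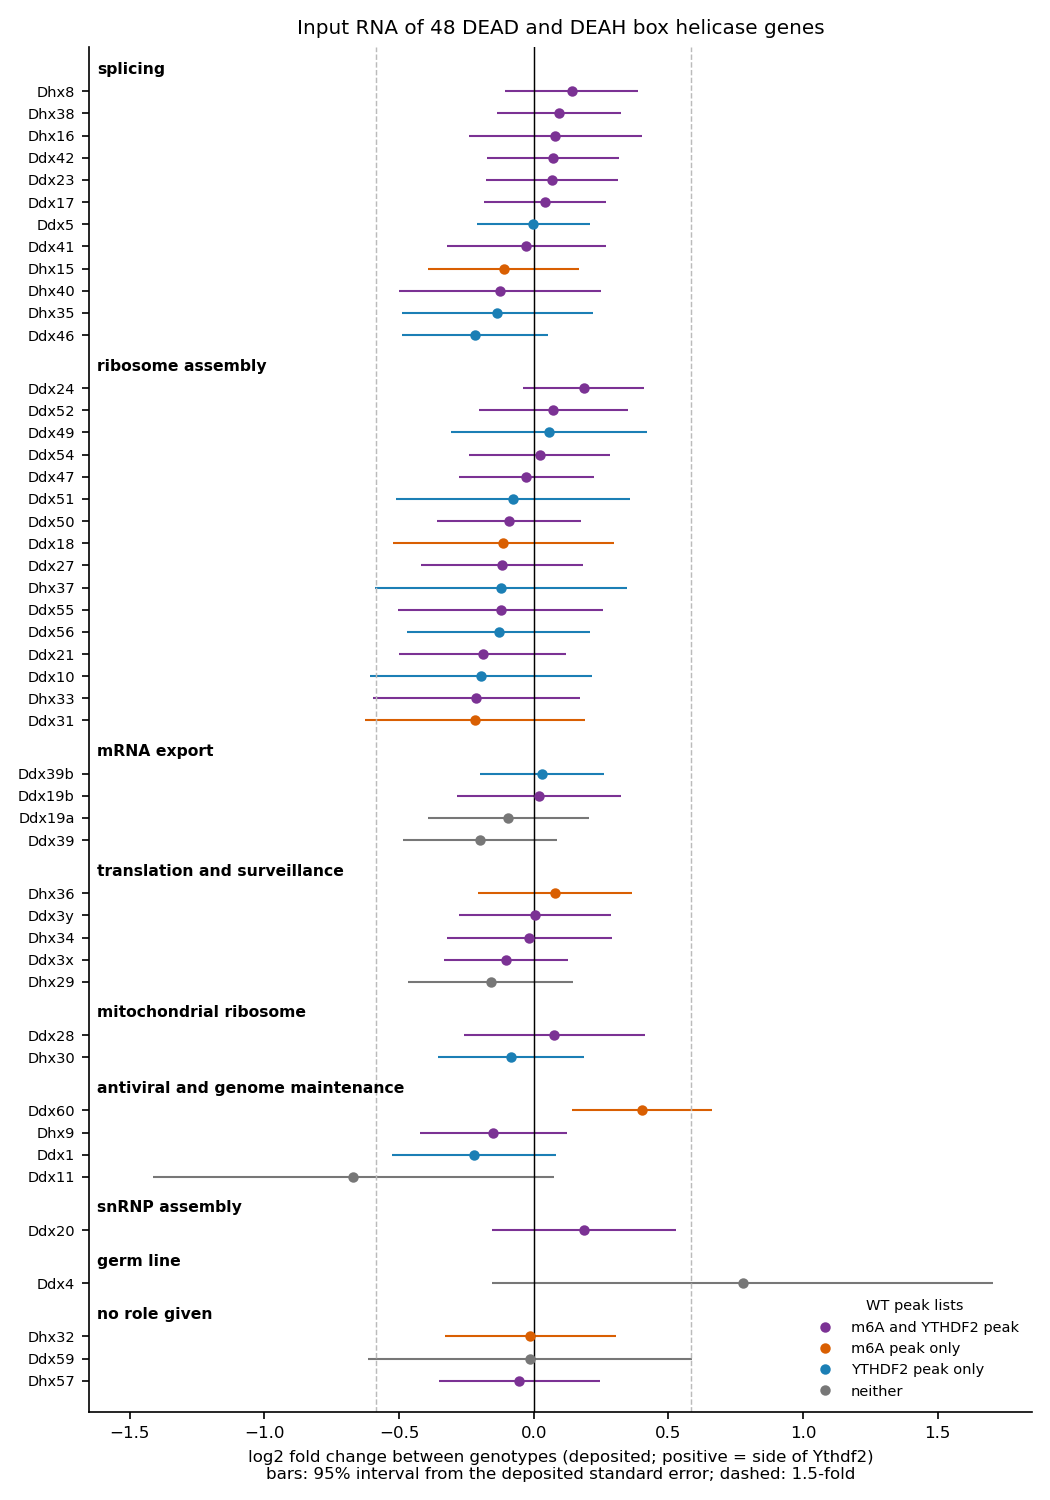
Each point is the deposited log2 fold change of 1 helicase gene between the genotypes' input RNA, with its 95% interval, grouped by role; positive values lie on the side of Ythdf2, and colours give the gene's WT peaks. Of the 48 intervals, 47 include 0, and Ddx60 alone lies clear of it.

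Ddx60, an interferon-induced helicase-like gene of antiviral defence, had the lowest p of the members but was not called. Its log2 fold change was 0.40 ± 0.13 in the authors' deposited table (1.32-fold, 95% interval 0.14 to 0.66, p = 0.00235, adjusted p = 0.083), on the side of Ythdf2. The adjusted p was 0.157 after centring and 0.204 with no filter on low counts, so it passed 0.10 in neither. Its mean normalized count there was 8477. Among the M1 markers in the authors' deposited table, the interferon-induced chemokine genes Cxcl9 (0.62 ± 0.15) and Cxcl10 (0.55 ± 0.13) lay on the same side. In the authors' deposited table the fibroblast genes Col1a1 (0.56 ± 0.17, adjusted p = 0.0491) and Col1a2 (0.46 ± 0.17) did so too, Col3a1 had −0.20 ± 0.27, and their part in the Ddx60 value was not tested. The interferon-induced RNA sensors left out by the rule lay nearer 0 in the authors' deposited table, at 0.23 ± 0.11 for Ddx58, which encodes RIG-I, and 0.04 ± 0.11 for Dhx58, which encodes LGP2. Ddx60 carried 2 m6A peaks in WT cells and no YTHDF2 peak. The longer m6A peak spanned 6010 bases of the gene, at chr8:61963628-61969637 (mm10, plus strand), and the other 75 bases, at chr8:61988131-61988205.

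Because Ddx60 is known as an interferon-induced gene, the 250 bases before the start that RefSeq's promoter table uses for each gene were searched for the core of the interferon-stimulated response element, GAAANNGAAA, on both strands. The promoters come from RefSeq (GRCm38.p6), which had an entry for 44 of the 48 members. The motif was in 2 of the 44 (4.55%) and in 3.46% of 27025 genes, and a match describes the letters only. Ddx60 held 2 copies, starting 53 and 19 bases before that start, and 0.211% of genes held 2 or more. RefSeq's gene table starts Ddx60 14 bases further upstream, so the second copy reaches into the gene by that annotation. The other member was the ribosome assembly gene Ddx49, with 1 copy starting 227 bases before the start and a log2 fold change of 0.06 ± 0.18 in the authors' deposited table. Both promoters are shown 5′ to 3′ on the strand of the gene, with the motif in capitals.
Ddx60 promoter (chr8:61927837-61928086, plus strand): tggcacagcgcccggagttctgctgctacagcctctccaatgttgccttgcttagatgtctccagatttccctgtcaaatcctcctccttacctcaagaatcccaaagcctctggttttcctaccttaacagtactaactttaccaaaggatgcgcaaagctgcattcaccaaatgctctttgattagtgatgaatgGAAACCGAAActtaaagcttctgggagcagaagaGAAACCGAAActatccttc
Ddx49 promoter (chr8:70302472-70302721, minus strand): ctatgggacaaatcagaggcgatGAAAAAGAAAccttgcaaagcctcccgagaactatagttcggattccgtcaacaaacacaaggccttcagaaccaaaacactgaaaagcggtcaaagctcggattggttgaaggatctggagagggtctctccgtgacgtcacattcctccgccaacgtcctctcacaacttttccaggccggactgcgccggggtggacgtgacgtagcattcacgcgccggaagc

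The other genes of antiviral defence and genome maintenance lay below 0. Ddx1, a subunit of the tRNA ligase complex that also binds viral double-stranded RNA, had −0.22 ± 0.16 in the authors' deposited table (adjusted p = 0.762). Dhx9, which resolves RNA-DNA hybrids and inverted repeats, had −0.15 ± 0.14 there. Ddx11 belongs by sequence to the iron-sulphur DNA helicases of sister chromatid cohesion, and had −0.67 ± 0.38 in the authors' deposited table. Its mean normalized count of 76.6 goes with a wide interval, −1.41 to 0.07, and it had neither kind of peak. None of these 3 intervals excluded 0.

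The 12 splicing helicases lay evenly about 0: 6 lay above 0 and 6 below, with a median log2 fold change of 0.02 from the authors' deposited table. All 12 intervals lay within 1.5-fold. On the side of Ythdf2, Dhx8, which releases mRNA from the spliceosome, had 0.14 ± 0.13, and Dhx38, which acts at the second step of splicing, had 0.09 ± 0.12 in the authors' deposited table. On the opposite side, Ddx46, which admits the U2 particle to the branch site, had −0.22 ± 0.14 there (adjusted p = 0.681), and its interval of −0.49 to 0.05 included 0. Dhx15, which takes spent spliceosomes apart, had −0.11 ± 0.14 in the authors' deposited table.

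Ddx5 and Ddx17 are paralogs that act in splicing, transcription and microRNA processing, and both had narrow intervals. In the authors' deposited table Ddx5 had a log2 fold change of −0.00 ± 0.11 and Ddx17 one of 0.04 ± 0.12. Their intervals ran from −0.21 to 0.21 for Ddx5 and from −0.18 to 0.27 for Ddx17.

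Of all roles, splicing held the most peaks. An m6A peak was listed for 9 of the 12 (75%), where 45.4% of all tested genes had one. A YTHDF2 peak was listed for 11 (91.7%), where 64.6% of all tested genes had one. Among all tested genes above the median count, the shares were 62.4% and 84.1%. The median mean normalized count of the splicing helicases was 2174, beside 739 over all tested genes. Together the 12 held 25 m6A and 42 YTHDF2 peaks. Ddx23, part of the U5 particle, and Dhx38 had 5 m6A peaks each, the most of any member. Ddx17 had 9 YTHDF2 peaks, the most of any member, and Ddx5 had 7 with no m6A peak. Ddx42, a partner of the U2 particle, and Dhx38 had 5 YTHDF2 peaks each. Every m6A peak of Ddx17 (3 of 3) shared at least 1 base with a YTHDF2 peak, as did 4 of 5 in Dhx38, whereas 0 of 5 did in Ddx23. In Ddx17 the shared stretches were 125, 280 and 9 bases, of m6A spans of 125, 1110 and 250 bases. In Dhx38 they were 44, 100, 149 and 251 bases, of spans of 175, 100, 1028 and 4914 bases. In Ddx23 the m6A peaks lay at 15.7% to 65.2% of the gene's length and the 2 YTHDF2 summits at 81.1% and 97.5%.

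Ddx17 and Ddx5 were also among the 3 members with a YTHDF2 summit deep inside an intron. In Ddx17, 5 of 9 summits lay in introns of the transcript the list names, and 2 of these were 493 and 1248 bases from the nearest end of an intron of 4043 bases. In Ddx5, 5 of 7 lay in introns, 3 of them 119, 155 and 271 bases from the nearest end. The first of these 3 lay in an intron of 252 bases, under a longer peak of 474 bases. The peak of the second ran past the near end of its intron of 1266 bases. Fold enrichments at these 5 summits were 2.46 and 2.05 in Ddx17 and 3.11, 2.07 and 1.91 in Ddx5, in the deposited list. RefSeq's promoter table places a start of Ddx17 inside the same Ddx17 intron. The letters of part of the peak with its summit at 1248 bases (chr15:79533095-79533383, minus strand) can therefore be read from it. The 73 bases shown are the 3′ portion of that peak on the strand of the gene, with the summit at base 6 of those shown. Capitals mark GGAC, a core of the m6A consensus, searched on the strand of the gene. It starts at bases 32 and 49, while 22.8% of promoter windows of this length hold it and 3.21% hold 2 or more. No placed m6A peak overlapped this YTHDF2 peak, so the capitals mark letters only.
Ddx17 intron peak (chr15:79533095-79533167, minus strand): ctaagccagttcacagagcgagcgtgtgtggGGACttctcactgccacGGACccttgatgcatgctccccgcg

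Ribosome assembly was the largest group, with 16 members, and 12 of them lay below 0. Their median log2 fold change was −0.11 from the authors' deposited table, none passed the threshold, and 12 intervals stayed within 1.5-fold. Of the 16, 25% lay above 0, against 48.7% of all tested genes and 42.6% of those below the median count. The part of count in this share was not tested. Ddx21, which works in rRNA transcription and processing, had −0.19 ± 0.16 (adjusted p = 0.85) in the authors' deposited table. Dhx33, which acts in rRNA synthesis and translation initiation, had −0.21 ± 0.20 there, and Ddx31 had −0.22 ± 0.21. The highest of the group was Ddx24, a factor of the large ribosomal subunit, to which the authors' deposited table gives 0.18 ± 0.12 (adjusted p = 0.675). The group also had lower counts than the splicing helicases, with median mean normalized counts of 579 and 2174 in that table, and wider standard errors, with medians of 0.179 and 0.132.

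Among the ribosome assembly genes, m6A peaks were listed for 11 of 16 (68.8%) and YTHDF2 peaks for 14 (87.5%). The shares of all tested genes were 45.4% and 64.6%. The group held 20 m6A and 21 YTHDF2 peaks in all. Ddx54, which works on the large subunit, had the most m6A peaks (4), all in the later part of the gene, from 74.6% to 92.6% of its length, and 2 of the 4 overlapped a YTHDF2 peak. Its intron peak had a fold enrichment of 4.98 in the deposited list, the highest of the group. Ddx24 had 3 peaks of each kind, with enrichments of only 1.88 to 2.06 in the list. In Ddx18, Ddx21 and Ddx27 an m6A peak spanned 3051 to 4621 bases of genome near the beginning of the gene, introns included. The midpoints lay at 9.18% to 13.6% of the gene's length. The Ddx49 peak also named its neighbour Homer3, so it cannot be assigned to Ddx49 alone.

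Export helicases differed from each other in their peaks. Ddx39b, the core ATPase of the complex that hands spliced mRNA to export receptors, had 4 YTHDF2 peaks and no m6A peak, whereas its paralog Ddx39 (Ddx39a in RefSeq) had neither. Ddx39b had a log2 fold change of 0.03 ± 0.12 in the authors' deposited table and Ddx39 one of −0.20 ± 0.15 (adjusted p = 0.795). Ddx19b, which remodels mRNA at the nuclear pore, had 2 YTHDF2 peaks of 1898 and 2754 bases with summits in its 3′ UTR and enrichments of 4.73 and 5.10 in the deposited list, and its m6A peak overlapped one of them. Its near-identical neighbour Ddx19a had no peak of either kind. Ddx19a had −0.09 ± 0.15 and Ddx19b 0.02 ± 0.16 in the authors' deposited table, and the sources used here do not say how reads that match both copies were counted.

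Of 4 microRNA hairpins that RefSeq places inside 3 member genes, 2 were touched by a YTHDF2 peak of the host gene. The Mir8094 hairpin lay whole within the longest Ddx39b peak (chr17:35249212-35251543, plus strand). The summit of that peak, at 35249972, was 903 bases from the nearest end of an intron of 2178 bases. The hairpin starts beyond the end of that intron, so it lay apart from the summit. Mir3064 overlapped the Ddx5 intron peak at chr11:106782719-106783271, with its 5p arm inside the peak and its 3p arm outside, and the list names 3 overlapping genes for that peak, Ddx5 among them. The RefSeq sequences (GRCm38.p6) are shown 5′ to 3′. Capitals mark GGAC in the hairpin, where 24.5% of all mouse hairpins hold it, and the seed, bases 2 to 8, in the mature forms. The 3 seeds differ. These peaks are spans of RNA fragments, so they do not show whether a mature microRNA was present.
Mir8094 hairpin (chr17:35251289-35251405, plus strand): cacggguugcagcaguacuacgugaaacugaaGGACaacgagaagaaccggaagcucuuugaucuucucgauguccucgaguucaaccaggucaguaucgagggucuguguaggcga
mmu-miR-8094: aACUGAAGgacaacgagaaga
mmu-miR-3064-5p: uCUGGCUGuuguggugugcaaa
mmu-miR-3064-3p: uGCCACACugcaacaccuuaca

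The translation and surveillance helicases lay close to 0, 2 above and 3 below, with all 5 intervals within 1.5-fold. The copies Ddx3x (X chromosome) and Ddx3y (Y chromosome) help ribosomes start on structured mRNA leaders. Ddx3x had −0.10 ± 0.12 and Ddx3y 0.01 ± 0.14 in the authors' deposited table. Their peaks were alike in number, 2 and 3 m6A peaks and 4 and 5 YTHDF2 peaks, but 3 of the 5 Ddx3y summits lay in introns, each 4 to 6 bases from an intron end, and 0 of 4 did in Ddx3x. Since the 2 genes are similar in sequence, some reads of one may have been placed on the other. Dhx36, which unwinds RNA G-quadruplexes, had 0.08 ± 0.15 in the authors' deposited table. It had no YTHDF2 peak and 1 m6A peak, which spanned 4734 bases of genome near the beginning of the gene, introns included. Dhx34, a factor of nonsense-mediated decay, had 3 YTHDF2 peaks, all with coding summits, with enrichments up to 4.17 in the deposited list. Dhx29, which helps small ribosomal subunits scan, had no peak and −0.16 ± 0.16 in the authors' deposited table.

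The remaining members were Ddx28 and Dhx30 of mitochondrial ribosome assembly, Ddx20 of the complex that loads spliceosomal RNA with Sm proteins, the germ line helicase Ddx4, and Ddx59, Dhx32 and Dhx57, for which no role is given. Ddx28 (0.08 ± 0.17) and Dhx30 (−0.08 ± 0.14) lay on opposite sides of 0 in the authors' deposited table. Ddx20 had 0.19 ± 0.17 there (adjusted p = 0.883), and both of its m6A peaks overlapped a YTHDF2 peak. Ddx4, the vasa homolog, had the highest fold change of all members in the authors' deposited table, 0.78 ± 0.47, at the lowest mean normalized count, 53.3, and its interval of −0.15 to 1.71 included 0. It had no peak of either kind.

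**Figure D2:**
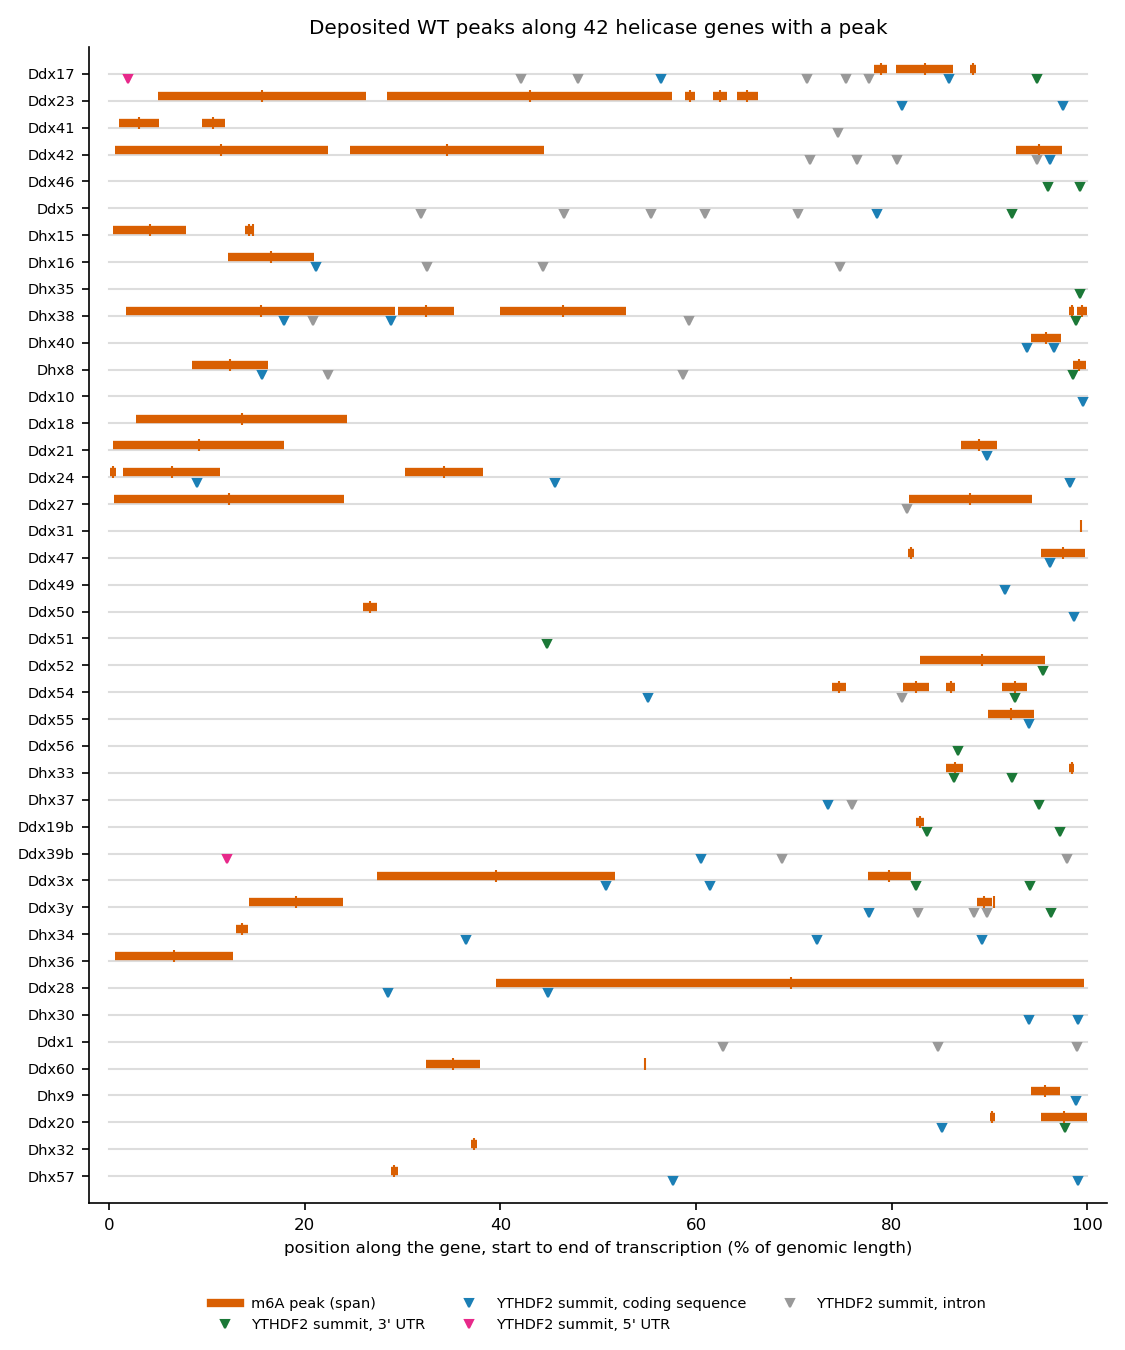
Deposited WT peaks along the 42 helicase genes that have one, scaled from the start (0%) to the end (100%) of the gene: bars are m6A peak spans, and triangles are YTHDF2 summits coloured by the feature they lie in. Ddx23 shows m6A peaks and YTHDF2 summits in different stretches. In Ddx17 each m6A peak shares at least 1 base with a YTHDF2 peak, though 1 of them shares only 9 bases.

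Across all members, m6A peaks were listed for most genes and for every role but the germ line. An m6A peak was listed for 31 of 48 members (64.6%), where 45.4% of all tested genes had one. Among members above the median count 76.7% had one, against 62.4% of all tested genes above it, and below the median the shares were 44.4% for the members and 28.4% for all tested genes. The 31 genes held 61 peaks, and 17 of them held 2 or more. Of the 61 midpoints, 14 (23.0%) lay in the last 10% of the gene, against 39.2% of all placed peaks. The first 10% held 6 (9.84%), against 6.49% of all placed peaks, and the stretch between held 41 (67.2%), against 54.4%. Member peaks were longer, with a median span of 550 bases against 325, and 25 (41.0%) spanned over 1000 bases of genome against 22.9%, introns included. These shares have no test, since the lists hold no replicate values and peaks of 1 gene share their source.

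YTHDF2 peaks were listed for 36 of 48 members (75.0%), where 64.6% of all tested genes had one. Above the median count the shares were close, 83.3% of members and 84.1% of all tested genes, and below it they were 61.1% and 45.0%. The 36 genes held 93 peaks, with enrichments of 1.80 to 8.23 and a median of 2.98 in the deposited list, beside 3.01 over all its peaks. The enrichment is the authors' value per peak and is used here only to rank peaks within that list. The 5 members with the highest were Ddx1 (8.23), Dhx8 (5.78), Ddx42 (5.71), Ddx19b (5.10) and Ddx54 (4.98), and all but Ddx19b had that summit in an intron. The Ddx1 peak, at chr12:13230336-13230547 (minus strand), was 212 bases long, with its summit 55 bases from the nearest end of the intron.

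**Figure D3:**
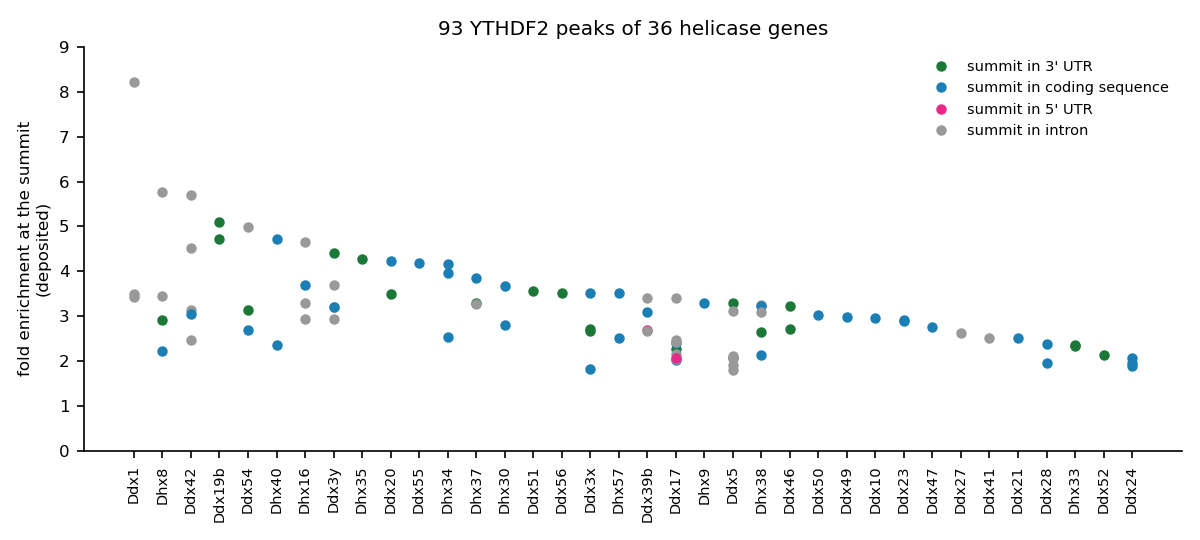
Each point is the deposited fold enrichment at 1 YTHDF2 summit in WT cells, for the 36 helicase genes with a peak ordered by their highest value, coloured by the feature of the summit. The highest values, 8.23 in Ddx1, 5.78 in Dhx8 and 5.71 in Ddx42, are intron summits.

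Fewer of the members' summits than of the whole list's lay in the 3′ UTR and more in introns, as shares with no test. Of the 93 summits, 38 (40.9%) lay in coding sequence, 33 (35.5%) in introns, 20 (21.5%) in the 3′ UTR and 2 (2.15%) in the 5′ UTR. Over all placed summits the shares were 35.7% coding, 23.1% intron, 39.2% 3′ UTR and 2.02% 5′ UTR. The 33 intron summits came from 13 members, led by Ddx5 and Ddx17 with 5 each and Ddx42 with 4. Without these 3 genes 19 of 72 summits (26.4%) lay in introns and 18 (25%) in the 3′ UTR. The whole list, with 23.1% and 39.2%, was not trimmed in the same way. These 3 genes were picked for having the most intron summits, so leaving them out had to lower the intron share. The lower share therefore does not show whether the excess in introns is confined to them. Of these 33, 27 (81.8%) lay within 100 bases of an intron end, against 73.8% of all intron summits, and RNA was cut to about 100 nucleotides for the m6A libraries. The other 6 were the 5 named in Ddx17 and Ddx5 and 1 in Ddx39b. The list names 1 transcript per member, so an exon of another transcript counts here as intron.

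**Figure D4:**
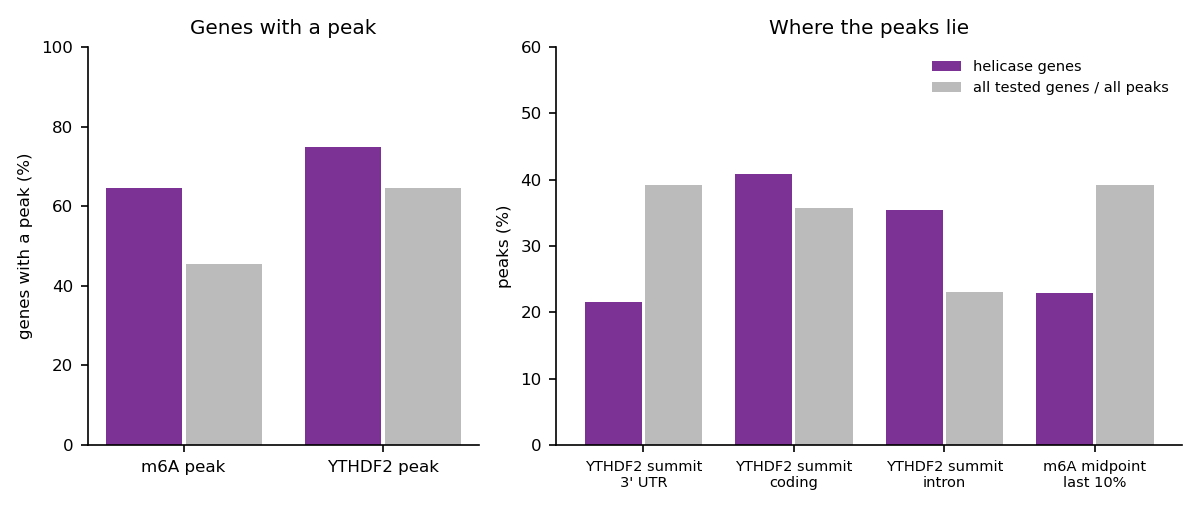
Left, the share of genes with an m6A or a YTHDF2 peak, for 48 helicase genes and for 10778 tested genes; right, the share of YTHDF2 summits per feature (93 and 17621 summits) and of m6A midpoints in the last 10% of the gene (61 and 9217 peaks). The helicase bars are higher for both kinds of peak and for introns, and lower for the 3′ UTR (21.5% against 39.2%) and the last 10% (23.0% against 39.2%).

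Whether the members' m6A peaks met YTHDF2 peaks as often as the whole list's depended on the overlap asked for. Of the members' 61 m6A peaks, 29 (47.5%) shared at least 1 base with a YTHDF2 peak, against 49.0% of all placed m6A peaks. Where 50% of the m6A peak had to be shared, 12 (19.7%) did, against 30.8% of all placed m6A peaks. That share is of the genomic span, introns included, and the members' spans were longer, with a median of 550 bases against 325. Their YTHDF2 peaks had a median length of 368 bases. The part of span length in the shares under either rule was not tested. Seen from the YTHDF2 list, 28 of 93 peaks (30.1%) met a placed m6A peak, against 22.9% of the list. All 61 of the members' m6A peaks were placed, and 9217 of 10290 in the whole m6A list. The part of span length and of placing in these shares was not tested. Both kinds of peak were listed for 25 of 48 members (35.9% of all tested genes had both), and 19 of the 25 (76.0%) held an overlap, against 74.7% of all such genes. A further 6 had only m6A peaks (Ddx18, Ddx31, Ddx60, Dhx15, Dhx32 and Dhx36), 11 only YTHDF2 peaks, and 6 neither (Ddx4, Ddx11, Ddx19a, Ddx39, Ddx59 and Dhx29). Of all 10778 tested genes, 1026 had only m6A peaks, 3093 only YTHDF2 peaks and 2794 neither.

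The members' fold changes can also be set out by their peaks, as medians with no test. From the authors' deposited table, the median log2 fold change was 0.01 for the 25 members with both marks, beside 0.03 over all tested genes with both. It was −0.06 for the 6 members with m6A alone, beside 0.01, and −0.12 for the 11 with YTHDF2 peaks alone, beside −0.03. The 6 members with neither had −0.13, beside −0.07 over all tested genes with neither. Counts moved with the marks, with median mean normalized counts of 1301, 834, 531 and 421 for these 4 groups of members in the authors' deposited table, and their part in these medians was not tested. The group medians lay within 0.153 of each other, the median standard error of a single member. That error does not measure the spread of a median over several genes.

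RNA helicases outside the naming pattern also held no called gene. Of 18 such genes, all tested, 0 were called in the authors' deposited table (the Wald test), where 2.32% of all tested genes were. At that share a list this short can hold 0 called genes. Of the 18, 7 lay above 0, and the median log2 fold change was −0.05. An unadjusted p under 0.05 (9.99% of all tested genes) was reached by 1, Helz2. The authors' deposited table gives this interferon-induced helicase 0.27 ± 0.12 (adjusted p = 0.335). Helz2 had 10 m6A peaks and no YTHDF2 peak, as in Ddx60. Znfx1, an interferon-induced antiviral helicase, had 0.21 ± 0.11 there with 5 peaks of each kind, and the translation initiation helicase Eif4a2 had −0.16 ± 0.12. G-patch proteins activate DEAH helicases. Of 20, all tested, 0 passed in the authors' deposited table (the Wald test), where 2.32% of all tested genes did. At an unadjusted p under 0.05 the count was also 0, against 9.99% of all tested genes. For them 14 lay above 0 and the median was 0.05. The G-patch gene farthest from 0 by its Wald statistic was Tfip11, a partner of Dhx15, which the authors' deposited table gives 0.23 ± 0.13 (adjusted p = 0.638), followed by Sugp2 (−0.16 ± 0.16) and Gpatch3 (0.16 ± 0.16). m6A peaks were listed for 17 of 20 G-patch genes (85.0%) and 9 of 18 other helicases (50.0%), beside 45.4% of all tested genes. YTHDF2 peaks were listed for 17 of 20 (85.0%) and 10 of 18 (55.6%), beside 64.6% of all tested genes.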

How the data were processed

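Macrophage input RNA of 2 genotypes and WT peak lists were used as deposited. The expression table holds, per the file headers, a mean normalized count (a signal: the authors averaged counts divided by size factors), a log2 fold change, its standard error and Wald statistic (a score the authors gave), a p-value and an adjusted p-value, under column names of DESeq2. The adjusted values deposited equal Benjamini-Hochberg values over 10778 genes (mean normalized count at least 48.0). The m6A list gives positions only. The deposited YTHDF2 list gives a fold enrichment ratio, −log10 p and −log10 q per peak in narrow-peak order, and of its 45541 rows 3234 repeats were dropped. HISAT2, HOMER, ChIPseeker and mm10 are named in the submitters' processing notes; the sources used here do not give the caller of the YTHDF2 list.

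The design foresaw counts per library; with none, the authors' calls are described. Intervals (95%) were computed from the deposited standard error and were not themselves tested. The centring and the adjusted calls after it were tested on simulated fold changes with the deposited standard errors. Symbols were joined directly or through RefSeq synonyms (GRCm38.p6), and an m6A peak was placed within 1000 bases of its gene (9217 of 10290). A summit in several features of the listed transcript counted as 3′ UTR first, then coding, then 5′ UTR, then intron. Python 3.11.15 with pandas 2.3.3, numpy 2.4.6 and scipy 1.17.1 was used, with matplotlib 3.10.9 for figures. Members and lists were chosen with earlier results of these data known. Genes described in detail were the 6 members with the highest and the 6 with the lowest Wald statistic, the 5 with the most m6A peaks, the most YTHDF2 peaks and the highest enrichment, and the 3 of each further list with the largest Wald statistic. Other members were named to complete their role.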

Additional observations from a re-analysis of the deposited data

How the results depend on the processing

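Of 27 alternative values for counts and medians, 22 stayed close to the reported one (counts within 1.5 times, medians within the median standard error), among them every count of members with a peak (31 with m6A and 36 with YTHDF2, also at a fold enrichment of at least 2 or a q of at most 0.001) and the count of 0 called members without the filter on low counts or after centring. The count of called members was 1 at an adjusted p under 0.10 (3.1% of all tested genes) and 1 at an unadjusted p under 0.05 in place of 0, Ddx60 both times. Its adjusted p was 0.157 after centring and 0.204 without the filter. The members' median log2 fold change was −0.08 after centring in place of −0.04. The m6A peaks that overlapped a YTHDF2 peak numbered 12 in place of 29 when 50% of the m6A peak had to be shared. Without Ddx5, Ddx17 and Ddx42, an alternative chosen after seeing the data, intron summits numbered 19 in place of 33 and 5′ UTR summits 1 in place of 2. Of 96 alternative values for single genes, 92 kept their sign. The other 4 came from centring on the most abundant 25% of genes, which moved every value by 0.04: Ddx19b to −0.018, Ddx39b to −0.0075, Ddx3y to −0.034 and Ddx54 to −0.018. No paired analysis was possible because the files hold no values per library. For the same reason a repeat with DESeq2 or edgeR on counts and leaving out each replicate were not run. Depth per library is unknown, and for 8 of 48 members the 95% interval reached beyond 1.5-fold.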
